A study of Mus musculus with 2 samples.

Results

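*Mme*, which encodes the cell-surface peptidase neprilysin (CD10), was followed in mammary fibroblasts together with 9 other genes for ectopeptidases and lipid or nucleotide ectoenzymes, namely *Dpp4*, *Enpep*, *Anpep*, *Fap*, *Ace*, *Nt5e*, *Enpp1*, *Enpp2* and *Pla2g7*. These 10 genes of the 33696 listed were selected by symbol with their levels in these data already known, so the values below are descriptions and no test is attached to them. They were read in cells with at least 500 detected genes, at most 10% mitochondrial unique molecular identifiers (UMIs, each counting 1 captured transcript) and at least 1 UMI of *Pdgfra*, a receptor gene that marks fibroblasts. There were 18878 such cells of 21688 barcodes at puberty and 20999 of 23183 in the adult.

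The cells came from mammary glands of female wild-type C57BL/6 mice, either pubertal (4 weeks of age) or adult virgin (9 weeks). The labels name no treatment and no engineered allele for either group, and both had been sorted as stromal cells negative for CD24 and for the lineage markers CD31, CD45 and TER-119. Each stage had 1 droplet library that pooled 2 females, and both were labelled replicate 2. With 1 library per stage there was no replicate check, so each difference compares these libraries and every interval is a 95% interval for counting error only.

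Ectopeptidases are membrane enzymes whose active site faces outward, where they trim or inactivate peptide hormones, neuropeptides and chemokines close to the receptors. Ectonucleotidases act in the same way on extracellular nucleotides, and secreted phospholipases make or destroy lipid mediators such as lysophosphatidic acid (LPA) and platelet-activating factor. In the mammary gland neprilysin is best known on myoepithelial cells and is also present on stromal fibroblasts, while dipeptidyl peptidase 4 (CD26) is a familiar surface marker of *Pi16*-positive fibroblasts in many tissues.

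The libraries were of similar depth. *Pdgfra* cells had median depths of 12187 (puberty) and 11265 UMIs (adult), and 145 barcodes occurred in both libraries. At least 3 of 5 fibroblast markers (*Dcn*, *Lum*, *Pdgfra*, *Col1a2*, *Col1a1*) were found in 99.9% and 99.8% of them, each marker being present in at least 97.6% of cells. At least 3 of 5 mural markers (pericyte and smooth muscle) were found in 0.705% and 0.333% of *Pdgfra* cells, and for endothelial, Schwann, muscle, epithelial and immune markers no share exceeded 0.0762%. The heat-shock genes *Hspa1a* (46.9 to 248 UMIs of this gene per 1000000 counted, CPM) and *Hspa1b* (36.8 to 295 CPM) were higher in the adult library, while the other 6 of 8 dissociation-stress genes stayed within 2-fold. Their part in the results below was not tested.

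To place the genes, *Mme* lies on chromosome 3 (chr3:63295211-63383713, RefSeq, build GRCm38.p6) and *Enpep* elsewhere on the same chromosome (chr3:129269177-129332749). *Dpp4* (chr2:62330073-62412315) and *Fap* (chr2:62500936-62575509) are relatives that lie 88620 bases apart with *Gcg*, the glucagon gene, between them. The others map to chr7:79821803-79848210 (*Anpep*), chr11:105967948-105989964 (*Ace*), chr9:88327609-88372089 (*Nt5e*), chr10:24637914-24712159 (*Enpp1*), chr15:54838901-54952789 (*Enpp2*) and chr17:43567994-43612202 (*Pla2g7*).

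The 250 bases before an annotated start are shown for *Mme* and *Pla2g7*, which were often found in the same cell, and for *Dpp4*. The latter was found with either of them less often than the product of the single shares. *Mme* has 3 annotated starts, of which the second is shown, and counts from 3′ ends do not tell which start was used. Each sequence runs 5′ to 3′ on the gene's strand. Capitals mark the letters of 3 common promoter motifs on either strand. The GC box was searched as GGGCGG. The CAAT box was searched as CCAAT. The TATA box was searched as TATAAA.
Mme, chr3:63295622-63295871, plus strand: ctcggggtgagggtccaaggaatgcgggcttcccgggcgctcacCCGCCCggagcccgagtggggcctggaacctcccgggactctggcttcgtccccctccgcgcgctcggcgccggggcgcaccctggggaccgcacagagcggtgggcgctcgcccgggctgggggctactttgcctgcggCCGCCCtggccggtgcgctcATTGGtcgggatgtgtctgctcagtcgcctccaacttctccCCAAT
Pla2g7, chr17:43568201-43568450, plus strand: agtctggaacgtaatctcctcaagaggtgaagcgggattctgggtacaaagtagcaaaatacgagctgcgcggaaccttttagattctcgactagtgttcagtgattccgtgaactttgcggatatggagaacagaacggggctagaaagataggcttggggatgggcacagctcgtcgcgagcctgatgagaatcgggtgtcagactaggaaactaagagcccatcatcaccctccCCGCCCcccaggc
Dpp4, chr2:62412232-62412481, minus strand: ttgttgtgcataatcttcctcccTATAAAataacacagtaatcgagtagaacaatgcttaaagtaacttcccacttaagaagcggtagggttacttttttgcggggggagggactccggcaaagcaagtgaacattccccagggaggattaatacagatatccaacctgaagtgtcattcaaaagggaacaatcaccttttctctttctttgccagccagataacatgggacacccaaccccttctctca
The *Mme* window was rich in G and C (73.2%, with 27 CpG pairs) and held 2 GC box and 2 CAAT box matches, whereas its first annotated start had 45.6% G and C and 2 CpG pairs. The *Pla2g7* window (52.8%, 14 CpG pairs) held 1 GC box match, and the *Dpp4* window (43.6%, 4 CpG pairs) held 1 TATA box match. Among the 32851 promoter windows of this length in the RefSeq table, 32.7% held the GC box letters, 33.8% those of the CAAT box and 12.4% those of the TATA box. Matches are descriptions of sequence only. The table had entries for 8 of the 10 genes, not for *Fap* and *Enpp2*.

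*Mme*, *Enpep*, *Enpp2* and *Pla2g7* were at least 2-fold higher in adult than in pubertal *Pdgfra* cells. *Dpp4* and *Anpep* were moderately lower and *Ace* was slightly lower. Among the 8 members with at least 10 CPM at either stage, 4 were at least 2-fold higher in the adult and 0 were at least 2-fold lower. Of all 8645 genes past the same minimum, 4.4% were at least 2-fold higher and 1.86% at least 2-fold lower. The median log2 ratio was 1.09 over the 8 members and 0.13 over all genes, but the members were chosen with these ratios in view. The nearest member below the 2-fold line was *Fap* at 1.52 and the nearest above it was *Enpep* at 2.97. *Nt5e* and *Enpp1* stayed under 10 CPM at both stages and were not counted.

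**Figure D1:**
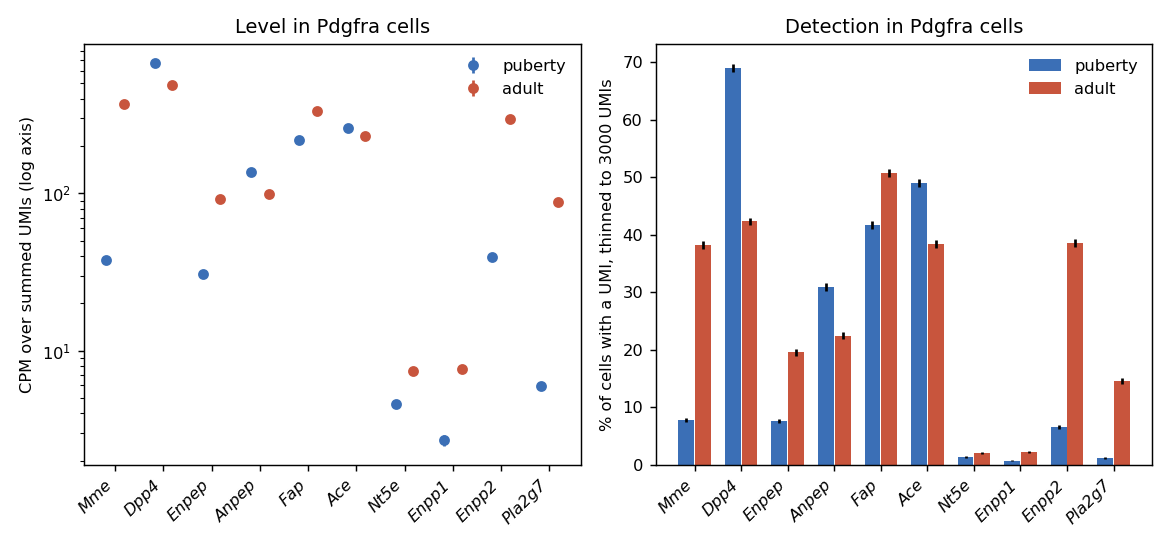
Levels of the 10 genes in Pdgfra cells at puberty (blue) and in the adult (red). The left panel gives CPM over summed UMIs on a log axis and the right panel the percentage of cells with at least 1 UMI after thinning to 3000 UMIs, with 95% counting intervals, which are narrower than most points. Mme went from 37.7 to 367 CPM and Dpp4 from 669 to 487 CPM.

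Among the neutral endopeptidases and aminopeptidases that end peptide signals, *Mme* stood at 37.7 CPM (36.9 to 38.5) at puberty and 367 CPM (365 to 370) in the adult, a ratio of 9.74 (9.53 to 9.96). It ranked 10th from the top of the 8645 genes by that ratio. At least 1 *Mme* UMI was present in 18.3% of cells at puberty and in 60.8% of adult ones. Because the chance of finding a UMI depends on depth, shares were also taken after thinning each cell to 3000 UMIs at random, which left out 336 pubertal and 426 adult cells, and *Mme* was then found in 7.77% and 38.3%. Cells with *Mme* also held more of it, with on average 2.59 UMIs per positive cell (puberty) against 7.13 (adult), and cells with 5 or more UMIs made up 2.08% and 23.0%.

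*Enpep*, the aminopeptidase that trims angiotensin II, stood at 30.8 CPM at puberty and 91.6 CPM in the adult, a ratio of 2.97 (2.89 to 3.05), and its thinned share went from 7.62% to 19.5%. *Anpep* (CD13), an aminopeptidase of broad specificity, was lower in the adult at 99.3 CPM against 136 CPM, a ratio of 0.729 (0.717 to 0.741). *Ace*, which makes angiotensin II and degrades bradykinin, was slightly lower in the adult at 231 CPM against 261 CPM, a ratio of 0.886 (0.876 to 0.896). Its thinned share was 48.9% at puberty and 38.4% in the adult.

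Of the prolyl-specific dipeptidyl peptidase family, *Dpp4*, which clips CXCL12 and incretin peptides, stood at 669 CPM at puberty and 487 CPM in the adult, a ratio of 0.727 (0.721 to 0.732). Its share of positive cells was 80.2% (puberty) and 54.3% (adult) as counted, or 69.0% and 42.3% after thinning, whereas the mean per positive cell was 10.5 and 10.6 UMIs. As counted, the lower *Dpp4* level thus went with fewer positive cells and a similar count within them. Its neighbour *Fap*, a dipeptidyl peptidase and gelatinase of activated fibroblasts, was higher in the adult, at 333 CPM against 218 CPM, a ratio of 1.52 (1.51 to 1.54). *Fap* was found in 78.8% and 78.2% of cells as counted, but in 41.7% and 50.7% after thinning, and its mean per positive cell went from 3.47 to 5.02 UMIs. At equal depth the share was thus 1.22 times as high in the adult (1.18 to 1.25).

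The secreted lipid enzymes had the largest ratios beside *Mme*. *Enpp2* encodes autotaxin, which makes LPA from lysophosphatidylcholine, and stood at 39.4 CPM at puberty and 298 CPM in the adult, a ratio of 7.58 (7.41 to 7.74). *Pla2g7* encodes the plasma form of platelet-activating factor acetylhydrolase and stood at 5.98 and 87.9 CPM, a ratio of 14.7 (13.9 to 15.5), the 5th highest of the 8645. Their thinned shares were 6.52% and 38.6% for *Enpp2*, and 1.13% and 14.5% for *Pla2g7*. Of the nucleotide enzymes, *Nt5e* (CD73), which releases adenosine from AMP, was at 4.55 and 7.38 CPM, and *Enpp1*, which splits ATP to AMP and pyrophosphate, at 2.69 and 7.65 CPM. Both were found in under 6.5% of cells as counted at either stage, so they are given as values only.

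Free RNA in droplets can place UMIs in cells that do not express a gene. In *Pdgfra*-negative cells with at least 3 mural markers (692 at puberty, 369 in the adult, median depth 6382.5 and 6476 UMIs), thinned *Mme* shares were 2.10% (1.15% to 3.49%) and 3.43% (1.72% to 6.05%), and *Dpp4* shares were 1.80% and 1.56%. *Pla2g7* was found in 0 of 668 thinned mural-like cells at puberty, which allows a share of up to 0.449%, and in 1 of 321 in the adult. *Enpp2* reached 2.25% and 9.97% there. All of these lay below the shares in *Pdgfra* cells, at the same thinned depth. *Enpep* differed, since mural-like cells held 73.7 and 156 CPM of it, above the *Pdgfra* cells at both stages. The *Enpep* ratio was 2.99 without cells that carried at least 3 markers of another type, and the part of mural RNA in the *Enpep* level of *Pdgfra* cells was not tested. A small set of Schwann-like cells (34 and 20 after thinning) also held *Mme*, in 14.7% (4.95% to 31.1%) and 40.0% (19.1% to 63.9%), and *Pla2g7*, in 14.7% and 35.0%. By CPM neither was higher in adult Schwann-like cells, with 122 and 118 CPM of *Mme* (ratio 0.967, 0.578 to 1.65) and 78.1 and 63.1 CPM of *Pla2g7* (0.808, 0.409 to 1.64).

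Marker genes were then used to place the enzymes among fibroblasts. The subsets were cells with at least 2 UMIs of *Pi16*, with *Gdf10* or *Fmo2*, with *Thbs4* or *Bmp5*, with at least 2 UMIs of *Fabp4*, with *Crabp1*, or with *Frmpd4*, and cells in none of the 6. They are ranges of marker counts and not cell types, and they overlap, since 33.4% of pubertal and 46.4% of adult cells were in more than 1. *Pi16* cells went from 73.4% to 43.0% of *Pdgfra* cells, *Gdf10* or *Fmo2* cells from 39.5% to 47.9%, *Thbs4* or *Bmp5* cells from 4.91% to 14.8%, *Fabp4* cells from 9.42% to 12.2%, *Crabp1* cells from 1.53% to 12.7% and *Frmpd4* cells from 5.19% to 25.1%.

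**Figure D2:**
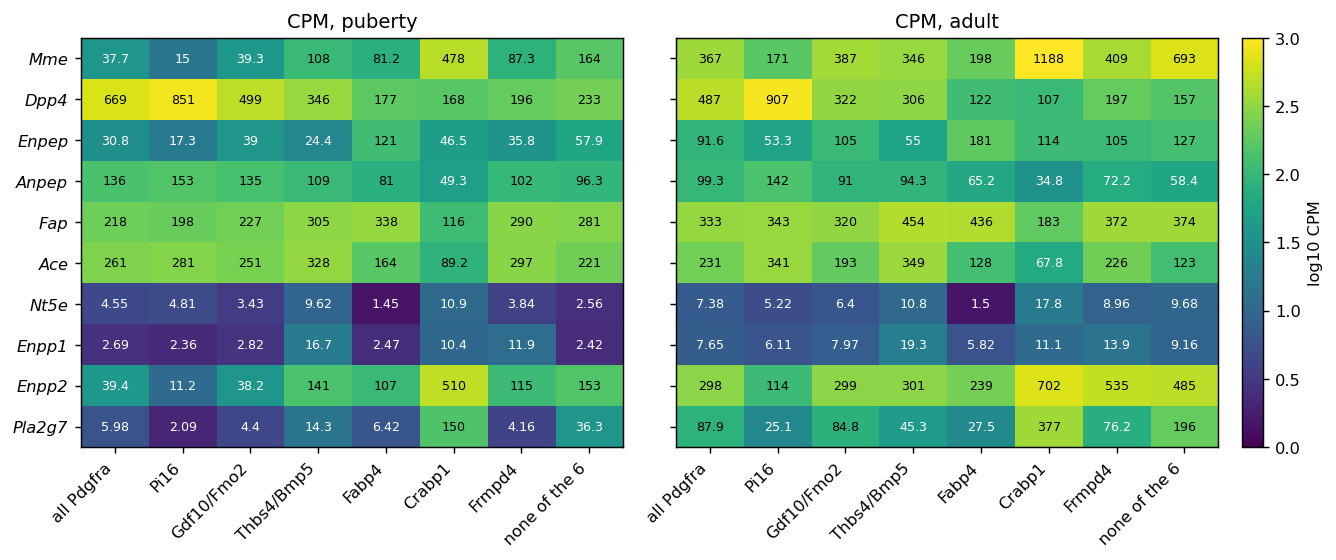
CPM of each gene (rows) in all Pdgfra cells, the 6 marker subsets and the cells in none of them (columns), at puberty (left) and in the adult (right), coloured by log10 CPM. Mme, Enpp2 and Pla2g7 were highest in Crabp1 cells at both stages, Dpp4 and Anpep in Pi16 cells and Enpep in Fabp4 cells.

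*Mme*, *Enpp2* and *Pla2g7* were highest in *Crabp1* cells and lowest in *Pi16* cells at both stages. *Mme* reached 478 CPM in *Crabp1* cells at puberty and 1188 CPM in the adult, with thinned shares of 60.4% and 79.3%, against 15.0 and 171 CPM in *Pi16* cells. The distance between the top and bottom subsets was 31.8-fold at puberty and 6.96-fold in the adult. At puberty *Frmpd4* (87.3 CPM) and *Fabp4* cells (81.2 CPM) did not differ in *Mme* beyond their counting intervals, and all other neighbours in the order did at both stages. *Enpp2* stood at 510 and 702 CPM in *Crabp1* cells and at 11.2 and 114 CPM in *Pi16* cells. *Pla2g7* stood at 150 and 377 CPM in *Crabp1* cells, where it was found in 24.3% and 51.8% after thinning, and at 2.09 and 25.1 CPM in *Pi16* cells, the latter not apart from adult *Fabp4* cells (27.5 CPM) beyond the counting intervals.

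*Dpp4* ran the other way. It was highest in *Pi16* cells, with 851 CPM at puberty and 907 CPM in the adult, and lowest in *Crabp1* cells, with 168 and 107 CPM, the former within the counting intervals of pubertal *Fabp4* cells (177 CPM). The top and bottom subsets, which share cells, were 5.07-fold apart at puberty and 8.45-fold in the adult. They lay much further apart in cells of a single subset. There *Dpp4* stood at 915 and 1221 CPM in *Pi16* cells and at 9.09 and 13.1 CPM in *Crabp1* cells, the pubertal *Crabp1* value resting on 10 UMIs. *Anpep* was also highest in *Pi16* cells (153 and 142 CPM) and lowest in *Crabp1* cells (49.3 and 34.8 CPM). *Ace* was highest in *Thbs4* or *Bmp5* cells (328 and 349 CPM), which in the adult did not differ from *Pi16* cells (341 CPM) beyond the counting intervals, and lowest in *Crabp1* cells (89.2 and 67.8 CPM). That top place was not kept in cells of a single subset, where *Ace* stood at 238 and 286 CPM in *Thbs4* or *Bmp5* cells and 278 and 357 CPM in *Pi16* cells. Pubertal *Frmpd4* cells of a single subset held 284 CPM. *Crabp1* cells therefore combined the highest *Mme*, *Enpp2* and *Pla2g7* with the lowest *Dpp4*, *Anpep*, *Ace* and *Fap* of the 7 groups.

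*Enpep* had a place of its own. It was highest in *Fabp4* cells, at 121 CPM at puberty and 181 CPM in the adult, and lowest in *Pi16* cells, at 17.3 and 53.3 CPM, a value close to the *Thbs4* or *Bmp5* cells in the adult (55.0 CPM). At least 3 mural markers were found in 6.69% of pubertal and 2.35% of adult *Fabp4* cells, more than in any other subset, and their part in the *Enpep* level was not tested. *Fap* was spread most evenly, with 2.91-fold between its highest (*Fabp4*, 338 CPM) and lowest (*Crabp1*, 116 CPM) subsets at puberty and 2.48-fold between *Thbs4* or *Bmp5* (454 CPM) and *Crabp1* cells (183 CPM) in the adult. *Nt5e* was highest in *Crabp1* cells (10.9 and 17.8 CPM) and *Enpp1* in *Thbs4* or *Bmp5* cells (16.7 and 19.3 CPM). At puberty the *Nt5e* level of *Crabp1* cells did not differ from that of *Thbs4* or *Bmp5* cells (9.62 CPM) beyond the counting intervals. The order of these subsets turned in cells of a single subset, with 30.1 and 76.9 CPM in *Thbs4* or *Bmp5* cells and 10.0 and 12.8 CPM in *Crabp1* cells.

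Within subsets the stage ratios of the members differed in size. At least 2-fold higher in the adult were 4 of 8 members counted in *Pi16* cells, where 3.42% of all genes were, 4 of 8 in *Gdf10* or *Fmo2* cells (3.66% of genes), 4 of 10 in *Thbs4* or *Bmp5* cells (1.38%) and 3 of 8 in *Fabp4* cells (2.04%). The counts were 3 of 10 in *Crabp1* cells (2.1%), 4 of 9 in *Frmpd4* cells (3.28%) and 4 of 8 in cells of no subset (3.82%). *Mme* and *Pla2g7* were among those members in each of these groups, but not in each when only cells of a single subset were kept. Then *Mme* was 1.50-fold higher in *Fabp4* cells, *Pla2g7* 1.39-fold in *Thbs4* or *Bmp5* cells and 1.70-fold in *Fabp4* cells, and *Enpp2* 1.25-fold and 1.04-fold in the same pair of subsets, all under 2-fold. *Mme* was 11.3-fold higher in the adult in *Pi16* cells (10.9 to 11.8) and 9.85-fold in *Gdf10* or *Fmo2* cells (9.53 to 10.2), but 2.48-fold in *Crabp1* cells (2.38 to 2.60) and 2.44-fold in *Fabp4* cells (2.33 to 2.57). *Pla2g7* was 19.3-fold higher in *Gdf10* or *Fmo2* cells (17.5 to 21.3), 18.3-fold in *Frmpd4* cells (13.9 to 24.5) and 2.51-fold in *Crabp1* cells (2.32 to 2.72). *Enpp2* ranged from 10.2-fold in *Pi16* cells to 1.38-fold in *Crabp1* cells, and *Enpep* from 3.07-fold in *Pi16* cells to 1.49-fold in *Fabp4* cells. In *Pi16* cells that were in no other subset the ratios were smaller, 5.82 for *Mme*, 4.78 for *Enpp2* and 3.80 for *Pla2g7*. Under these ratios the pubertal levels of *Mme* and *Enpp2* in *Pi16* cells were low, and they are set beside those of mural-like cells. For *Pla2g7* the pubertal level was 2.09 CPM in all *Pi16* cells, beside 0.439 CPM in mural-like cells. *Mme* stood at 15.0 CPM in all and 8.25 CPM in single-subset *Pi16* cells, beside 8.33 CPM (5.90 to 11.4) in mural-like cells, and its thinned share in *Pi16* cells was 3.49% beside 2.10% (1.15% to 3.49%). *Enpp2* stood at 11.2 CPM beside 8.77 CPM (6.27 to 11.9), with thinned shares of 2.18% and 2.25%. How much of the mural-like *Mme* and *Enpp2* was free RNA was not tested. *Dpp4* stood at 21.1 CPM in pubertal mural-like cells, beside 669 CPM in all pubertal *Pdgfra* cells. The *Mme* and *Enpp2* ratios in *Pi16* cells therefore carry an uncertainty from free RNA that was not measured.

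**Figure D3:**
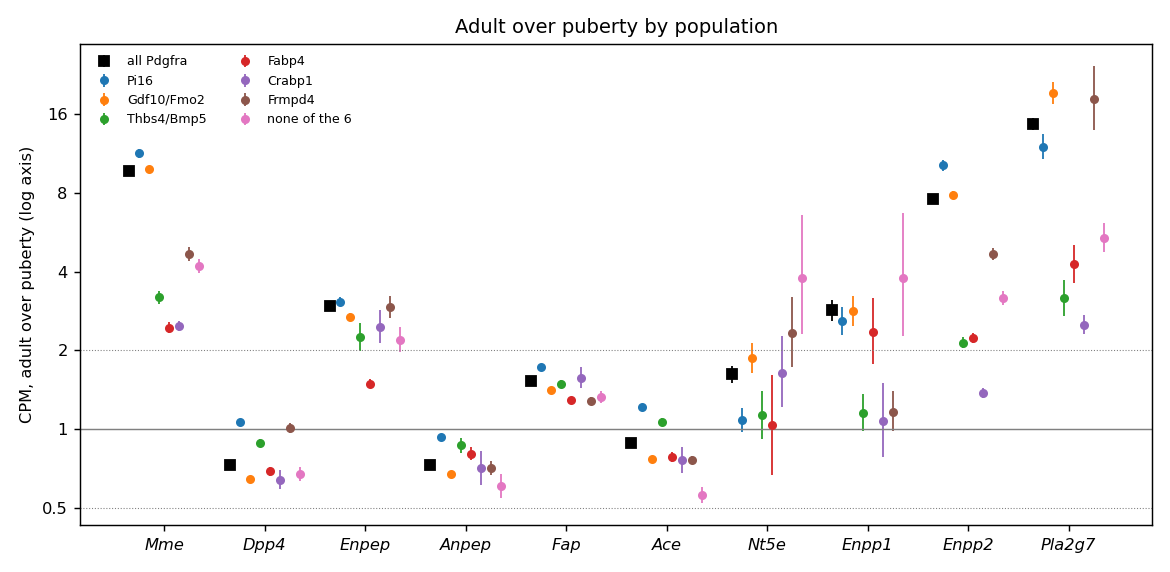
Adult over pubertal CPM (log axis) for each gene in all Pdgfra cells (black squares) and in each subset (coloured points), with 95% counting intervals as bars. The solid line marks a ratio of 1 and the dotted lines 2-fold. Mme ranged from 2.44 to 11.3, and Dpp4 from 0.640 to 1.07 over the 6 marker subsets.

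Over all cells *Dpp4*, *Anpep* and *Ace* were lower in the adult. Inside *Pi16* cells the CPM of *Dpp4* and *Ace* was slightly higher and that of *Anpep* was close to level. In *Pi16* cells the CPM ratio was 1.07 for *Dpp4* (1.06 to 1.07), 0.930 for *Anpep* (0.912 to 0.947) and 1.21 for *Ace* (1.20 to 1.23). The log2 ratio of *Dpp4* there was 0.09, beside a median of 0.13 over all genes in these cells. By thinned share, *Dpp4* was lower in adult *Pi16* cells, at 0.894 times the pubertal share (0.868 to 0.921). For *Ace* the thinned share ratio there was 1.07 (1.04 to 1.11). In *Gdf10* or *Fmo2* cells the CPM ratio was 0.645, 0.675 and 0.769. Restricting *Gdf10* or *Fmo2* cells to those in no other subset gave 1.02 for *Dpp4*, 0.835 for *Anpep* and 0.658 for *Ace*. When both libraries were given the pubertal shares of the 48 subset combinations that occurred in both, *Dpp4* came out at 1.26 in place of 0.727, *Ace* at 1.12 in place of 0.886 and *Anpep* at 0.992 in place of 0.729, so the direction turned for *Dpp4* and *Ace*. Under the same weights *Mme* was 4.39-fold higher in place of 9.74, *Enpp2* 3.10, *Pla2g7* 5.21, *Enpep* 2.29 and *Fap* 1.49. The 4 members past 2-fold remained past it.

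*Mme* and *Dpp4* were found in the same cell less often than the product of their single shares. As counted, 1905 pubertal cells (10.1%, 9.66% to 10.5%) and 5636 adult cells (26.8%, 26.2% to 27.4%) held both, where the products were 14.7% and 33.0%. After thinning, both were found in 2.24% of pubertal and 8.12% of adult cells, against products of 5.36% and 16.2%, which corresponds to odds ratios of 0.155 and 0.217. With predicted doublets left out, these odds ratios were 0.134 and 0.186. At puberty 3.24% of thinned *Dpp4*-positive cells held *Mme*, which lies within the interval of the *Mme* share in mural-like cells (1.15% to 3.49%). In the adult 19.2% did, above 3.43% (1.72% to 6.05%). By this share alone, *Mme* in pubertal *Dpp4*-positive cells was not told apart from that in mural-like cells. Pubertal mural-like cells held 21.1 CPM of *Dpp4* beside 669 CPM in *Pdgfra* cells, and 8.33 CPM of *Mme* beside 37.7 CPM. How much of their *Mme* was free RNA was not tested, so this share does not measure background. As counted, *Mme* stood at 17.9 CPM in pubertal *Dpp4*-positive cells, beside 8.33 CPM in mural-like cells. At least 2 UMIs of each gene were found in 2.68% of pubertal cells. The part of background in pubertal co-detection was not tested. With that limit, the adult share of cells with both was 2.66 times that at puberty as counted (2.52 to 2.80) and 3.63 times after thinning (3.26 to 4.05).

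Most cells held 1 of the pair and not the other. *Dpp4* alone was present in 66.8% of thinned cells at puberty and 34.2% in the adult, *Mme* alone in 5.53% and 30.1%, and neither in 25.5% and 27.6%. In cells with no *Dpp4* UMI, *Mme* stood at 132 CPM at puberty and 719 CPM in the adult as counted, and in cells with *Dpp4* at 17.9 and 148 CPM. Both kinds of cells thus held several times more *Mme* in the adult. Of thinned *Mme*-positive cells, 28.8% held *Dpp4* at puberty and 21.2% in the adult, while in *Mme*-negative cells the shares were 72.4% and 55.3%. As counted, 55.2% and 44.2% of *Mme*-positive cells held *Dpp4*, against 85.8% and 70.0% of *Mme*-negative cells.

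**Figure D4:**
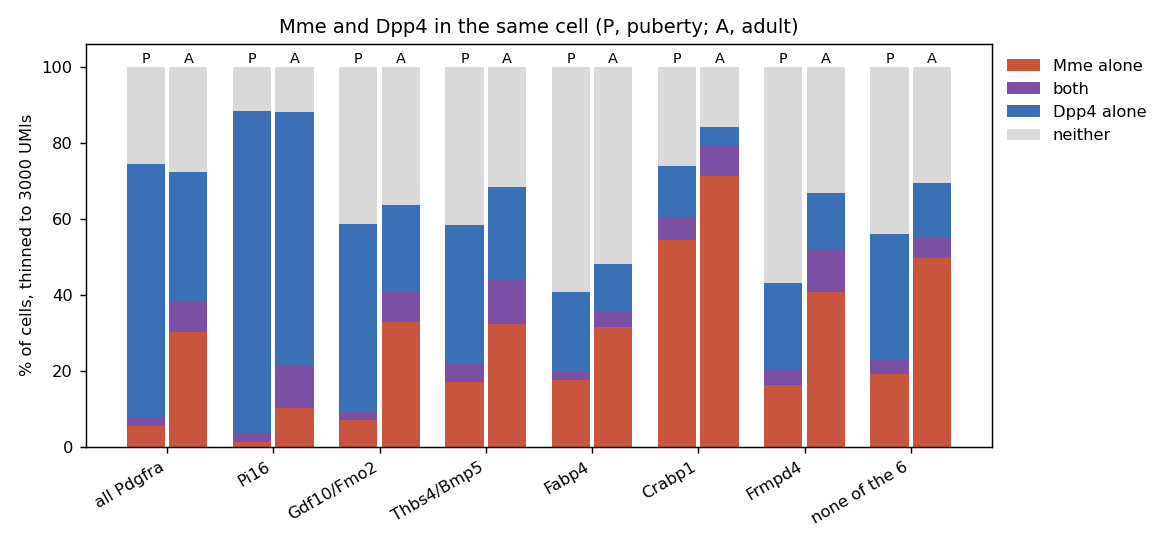
Percentage of cells, thinned to 3000 UMIs, with Mme alone, Dpp4 alone, both or neither in all Pdgfra cells and each subset at puberty (P) and in the adult (A). Cells with both were 2.24% of all pubertal and 8.12% of all adult Pdgfra cells.

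Inside the subsets the avoidance was present but weaker in most. In *Pi16* cells both were found in 2.32% (product 3.04%) at puberty and 11.5% (16.9%) in the adult after thinning, with odds ratios of 0.274 and 0.203. In *Gdf10* or *Fmo2* cells the odds ratios were 0.237 and 0.375, in *Thbs4* or *Bmp5* cells 0.323 and 0.472, and in *Crabp1* cells 0.208 and 0.361. They were 0.337 and 0.562 in *Fabp4* cells and came nearest to 1 in *Frmpd4* cells (0.618 and 0.613), where 4.03% and 11.3% of cells held both. As counted, the odds ratios were 1.09 and 1.02 in *Frmpd4* cells and 1.03 in adult *Fabp4* cells, so there no avoidance was seen without thinning.

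Among the 45 pairs of members, 2 groups stood out. *Mme*, *Enpp2* and *Pla2g7* were found together, with thinned log2 odds ratios of 4.57 and 4.21 (puberty and adult) for *Mme* with *Pla2g7*, 3.32 and 2.48 for *Mme* with *Enpp2*, and 4.66 and 3.15 for *Enpp2* with *Pla2g7*. Of thinned *Pla2g7*-positive cells, 64.6% at puberty and 88.6% in the adult held *Mme*, and of *Pla2g7*-negative cells 7.12% and 29.7% did. *Dpp4* went with *Ace* (0.90 and 1.95) and *Anpep* (0.76 and 1.50), and apart from *Pla2g7* (-3.27 and -3.30) and *Enpp2* (-2.95 and -2.32). *Fap* stood at 0.04 and -0.75 with *Mme* and at 0.03 and 0.64 with *Dpp4*, so after thinning it was close to 0 with both at puberty and in the adult went apart from *Mme* and with *Dpp4*. As counted, *Dpp4* with *Fap* gave 1.20 and 2.28. *Enpep*, as counted at puberty, gave 1.69 with *Mme*, 1.84 with *Enpp2*, 0.30 with *Pla2g7* and -1.23 with *Dpp4*. *Pla2g7*-positive adult cells had a lower median depth before thinning (8411 UMIs) than negative ones (11845.5 UMIs), and the part of this in the pairing was not tested. Cells are not replicates and share their library, so these ratios are descriptions.

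**Figure D5:**
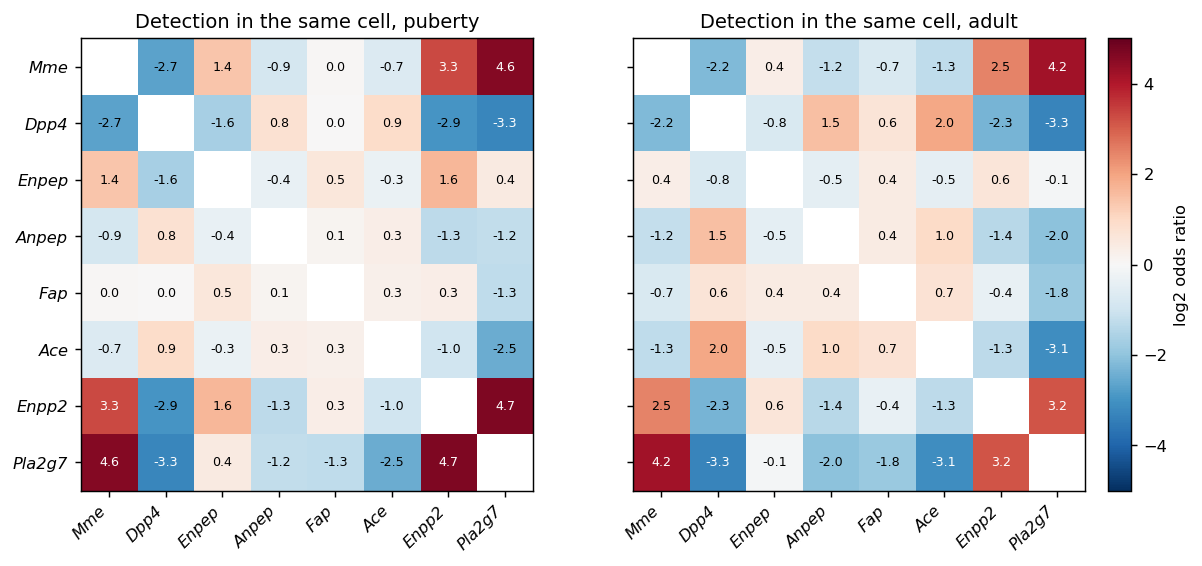
Log2 odds ratios of finding both genes of a pair in the same Pdgfra cell, thinned to 3000 UMIs, at puberty (left) and in the adult (right), for the 8 members with at least 10 CPM. Positive values (red) mean found together more often than the single shares give. Mme, Enpp2 and Pla2g7 form one red group, and Dpp4 is blue against each of them.

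Counting how many of the 10 genes a thinned cell held, the median was 2 at puberty and 3 in the adult, and the mean was 2.16 and 2.69. Cells with none made up 5.72% and 3.70%. Of thinned *Mme*-positive cells at puberty, 12.1% were *Crabp1* cells, against 0.667% of *Mme*-negative cells, and in the adult 26.7% were, against 4.31%. *Pi16* cells held 93.5% of *Dpp4*-positive pubertal cells and 80.3% of adult ones.

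Likeness between genes was measured over 14 sums of cells (the 6 subsets and the cells in none, at each stage) as Pearson's r of log2(CPM + 1), among 7414 genes. The sums share libraries and cells, so r is a description. The 3 genes most like *Mme* were *Cbfa2t3* (0.989), *Spred2* (0.987) and *Prune2* (0.987). *Dpp4* was followed most closely by *Adcy2* (0.986), *Anxa3* (0.982) and *Spock3* (0.981), *Enpp2* by *Pde11a* (0.991), *Itga8* (0.981) and *Jazf1* (0.980), and *Pla2g7* by *Gramd1b* (0.989), *Usp22* (0.986) and *Stk32a* (0.985). For *Anpep* they were *Plac9* (0.985), *Ly6c1* (0.981) and *Ly6a* (0.980), the last of which encodes the surface antigen Sca-1. *Ace* was most like *Agtr1a* (0.981), the gene for the angiotensin II receptor type 1, which stood at 44.2 CPM at puberty and 40.5 CPM in the adult, followed by *Pdzd2* and *Plcb4*. *Enpep* was most like *Plcl2* (0.975), *Slc36a2* and *Rsrp1*, and *Fap* like *AW112010* (0.944), *Asap3* and *Pip4p1*. The low-count members came closest to *Adcy7*, *Sike1* and *Golm2* (*Nt5e*) and to *Ptgfr*, *Sgcd* and *Otud7a* (*Enpp1*).

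Lists of related genes were read in the same way. Among 15 other ectopeptidases, 10 reached 10 CPM, 2 were at least 2-fold higher in the adult and 1 at least 2-fold lower. The shares over all genes were 4.4% and 1.86%. The median log2 ratio was 0.18 beside 0.13 over all genes. *Trhde*, which degrades thyrotropin-releasing hormone, went from 8.57 to 24.5 CPM, and *Ggt5*, a glutamyl transferase that acts on leukotriene C, from 27.6 to 60.0 CPM. *Cpz*, a secreted carboxypeptidase, went from 115 to 28.1 CPM, and it was lower in the adult in each subset and in the cells outside them.

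Of 13 genes for nucleotide and adenosine handling, 7 reached 10 CPM and the median log2 ratio was 0.32. *Entpd1* (CD39), which makes the AMP on which CD73 acts, was 2.95-fold higher in the adult (25.0 to 73.9 CPM), and was highest in *Crabp1* cells, at 269 and 228 CPM, where it was not higher in the adult. *Adora2b*, an adenosine receptor, went from 31.5 to 13.6 CPM. For LPA and platelet-activating factor handling, 7 of 15 genes reached 10 CPM and the median log2 ratio was -0.15. Of these, 0 passed 2-fold in either direction, beside 4.4% (higher) and 1.86% (lower) of all genes. The receptors and phosphatases of LPA that reached 10 CPM thus stayed within 2-fold while autotaxin was 7.58-fold higher.

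Among 20 genes for peptide substrates and their receptors, 8 reached 10 CPM, 2 were at least 2-fold higher and 0 lower, with a median log2 ratio of 0.40. Of all genes past the same minimum, 4.4% were at least 2-fold higher and 1.86% lower. Both that passed concern peptides that neprilysin can cleave, but the list was chosen to hold such substrates and receptors, so this draws no link to *Mme*. The others that reached 10 CPM stayed within 2-fold, namely *Tac1* (1.75), *Cxcl12* (1.45), *Npr2* (1.21), *Npr1* (1.03), *Edn1* (1.02) and *Agtr1a* (0.916). *Penk*, the enkephalin precursor, went from 73.6 to 244 CPM, a ratio of 3.32, and *Ednra*, the endothelin receptor type A, from 10.5 to 66.6 CPM, a ratio of 6.34. *Ednra* was highest in *Crabp1* cells, at 166 CPM at puberty and 258 CPM in the adult, as *Mme* was. *Penk* was highest in *Crabp1* cells at puberty (188 CPM) and at 394 CPM there in the adult, close to the *Frmpd4* cells (396 CPM).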

How the data were processed

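Single-cell RNA sequencing counts of 2 libraries (1 per stage) were analysed. The authors deposited filtered matrices of raw UMI counts per gene and barcode, without normalization. Headers and the submitters' processing notes give Cell Ranger 8.0.1, and the notes name build mm10. The methods text of the study differs from the labels in kit, in the age at puberty and in the release of Cell Ranger, and the labels and file headers were followed. The gene list had 33696 genes, of which 31961 identifiers were in GENCODE M21 and 1735 were not, so the annotation behind the counts is not given in the sources used here, and gene positions and promoter sequences were taken from RefSeq (GRCm38.p6).

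Cells were filtered as stated, with no upper gene limit. Counts were summed over cells and scaled to CPM, with exact Poisson (sums), Clopper-Pearson (shares) and conditional binomial (ratios) 95% intervals. UMI counts from 3′ ends were not divided by transcript length, so levels are compared within a gene. A gene counted as different at 2-fold with at least 10 CPM in 1 library, a rule of size and no test. No doublets were removed in the values reported; as an alternative, the highest Scrublet scores (scanpy 1.11.5) were removed at 0.4% per 1000 barcodes, and Scrublet's own threshold marked 3.26% and 3.48%. Other alternatives were TMM scaling (edgeR 4.0.16), means of cell CPM, other cell limits, thinning and reweighting. The ratio calculation was tested on simulated data. Members, lists and alternatives were chosen with earlier results of these data known. All members were named, from each list the genes past 2-fold, and for each member the 3 most alike genes with at least 20 CPM in 1 sum.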

Additional observations from a re-analysis of the deposited data

Results flagged for a closer look

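In CPM, *Dpp4* and *Ace* differed in direction between subsets, which was not tested since each stage had 1 library. In *Pi16* cells the adult over pubertal CPM ratio was 1.07 for *Dpp4* and 1.21 for *Ace*. In *Crabp1* cells the CPM ratio was 0.640 and 0.760. Thinned share ratios were 0.894 and 1.07 in *Pi16* cells, and 0.669 and 0.641 in *Crabp1* cells. By thinned share, *Dpp4* was thus lower in the adult in both subsets. Only 289 pubertal cells were in the *Crabp1* subset, of which 28.4% also passed the *Pi16* limit, against 17.1% of 2672 adult ones. In cells of a single subset the *Crabp1* ratios were 1.44 for *Dpp4* (0.753 to 3.08) and 1.26 for *Ace* (0.739 to 2.31). They rest on 10 and 15 UMIs in 86 pubertal cells and their intervals include 1, so no direction can be read there. In *Pi16* cells of a single subset the ratios were 1.34 and 1.28.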

How the results depend on the processing

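No paired analysis was possible because each stage had 1 library. The count of members at least 2-fold higher in the adult was 4 under each of the 10 other settings and 5 with no minimum CPM, an alternative chosen after seeing the data that adds *Enpp1* (2.84). None was 2-fold lower under any. The *Mme* ratio of 9.74 was 9.41 with at least 2 *Pdgfra* UMIs, 10.02 without predicted doublets, 8.83 with TMM scaling, 11.55 as the mean of each cell's CPM, 11.45 after thinning and 4.39 with adult cells reweighted to pubertal subset shares. The remaining settings left it within its counting interval. TMM scaling lowered every log2 ratio by 0.14, which takes the median of all genes from 0.13 to -0.01. The ratio of *Mme* and *Dpp4* co-detection, 2.66, was 4.53 with at least 2 UMIs of each and 3.63 after thinning. Of 90 ratios of other members under alternatives, 88 kept their direction, the exceptions being *Dpp4* and *Ace* under reweighting. Within subsets, 100 of 120 did, and *Enpp1* in *Pi16* cells went from 2.59 to 0.53 in cells of a single subset. For low counts such as *Enpp1* and *Nt5e*, depth limits what shares can show. The causes were not tested.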
